A study of Homo sapiens with 64 samples.

Results

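The HOX cluster genes are the homeobox transcription factor genes of the HOXA, HOXB, HOXC and HOXD clusters, and 38 of the 54127 genes listed in the count files were members. A gene was a member where its Ensembl identifier mapped to a protein-coding symbol made of HOX, a cluster letter and a number, which gave 11 HOXA, 9 HOXB, 9 HOXC and 9 HOXD genes. HOXB7 was not analysed here. RNA sequencing had been performed on 6 human colorectal cancer cell lines grown as nonadherent serum-free spheroids with EGF and bFGF after labeling with CFSE, a dye that is diluted at each cell division. On day 6, label-retaining cells (LRCs, the dormant CFSE-high cells) and non-LRCs (the cycling bulk) were sorted from HT55 and SW948, which the study placed in colon cancer subtype CCS1, from RKO and SW48 (CCS2) and from DLD1 and HCT15 (CCS3), with 4 samples of each population in each line. A further 16 libraries labelled DLD1 had been treated with CFSE or with the DMSO vehicle and were collected on day 1 or day 5 as the labels give it (the study's text calls the later one day 6), with 4 samples of each kind. Each line is 1 established culture and stands for its subtype only as far as a pair of lines can, and the sorted non-LRCs had themselves been labeled with CFSE.

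In the embryo the HOX genes are switched on in the order in which they lie along the chromosome, the low numbers toward the head and the high numbers toward the tail, and genes with the same number in different clusters are paralogs. Their proteins bind short AT-rich sites, often together with the TALE homeodomain cofactors of the PBX, MEIS and PKNOX families. The clusters are kept silent by Polycomb proteins and active by MLL complexes, and in the hindgut the ParaHox factor CDX2 acts upstream of several of them. The adult colon keeps a positional HOX pattern, with the posterior genes most active toward the rectum.

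The sequence before the start site is shown for genes that recur in the comparisons below: HOXA9 and HOXA11, which were lower in LRCs, HOXA13, which separated the lines and moved in the control cultures, and HOXC4 with HOXC5, which have one common RefSeq start. Each run is the 250 bases 5′ of a RefSeq start (build GRCh38.p14), read 5′ to 3′ on the strand of the gene, and capitals mark TTTAT or its reverse complement ATAAA, letters found at the core of CDX binding sites. HOXA9 lies at chr7:27165538-27165787 and HOXA11 at chr7:27185233-27185482, both on the minus strand. HOXA13 lies at chr7:27200092-27200341, also on the minus strand, and the window of HOXC4 and HOXC5 at chr12:54016638-54016887 on the plus strand.
HOXA9: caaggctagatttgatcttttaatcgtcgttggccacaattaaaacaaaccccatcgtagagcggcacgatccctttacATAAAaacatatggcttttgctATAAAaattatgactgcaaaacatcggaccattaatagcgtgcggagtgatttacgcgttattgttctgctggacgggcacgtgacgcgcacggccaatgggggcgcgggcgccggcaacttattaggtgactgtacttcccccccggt
HOXA11: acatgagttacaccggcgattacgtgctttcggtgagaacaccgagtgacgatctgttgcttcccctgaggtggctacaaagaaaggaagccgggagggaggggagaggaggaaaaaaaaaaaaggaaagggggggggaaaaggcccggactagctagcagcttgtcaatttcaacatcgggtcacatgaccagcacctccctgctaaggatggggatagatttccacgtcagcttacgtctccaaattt
HOXA13: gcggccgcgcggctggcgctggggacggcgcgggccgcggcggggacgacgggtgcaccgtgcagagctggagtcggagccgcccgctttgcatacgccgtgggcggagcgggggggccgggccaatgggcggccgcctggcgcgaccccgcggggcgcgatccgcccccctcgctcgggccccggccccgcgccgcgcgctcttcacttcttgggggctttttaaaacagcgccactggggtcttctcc
HOXC4 and HOXC5: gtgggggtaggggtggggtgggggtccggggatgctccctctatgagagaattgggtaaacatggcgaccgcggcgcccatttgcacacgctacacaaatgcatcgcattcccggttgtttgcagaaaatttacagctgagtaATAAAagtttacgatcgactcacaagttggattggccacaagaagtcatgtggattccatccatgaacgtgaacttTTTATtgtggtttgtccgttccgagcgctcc
The window of HOXA9 held 2 matches, 167 and 145 bases before the start, and that of HOXC4 and HOXC5 held 2 matches, 103 and 27 bases before it. No match lay in the windows of HOXA11 and HOXA13, of which HOXA13 was 78.0% G and C. Both strands were searched, and of 26 separate windows found for 20 members, 13 (50.0%) held at least 1 match, 7 of the 26 being windows of HOXA3, of which 5 held one. Counted by gene, 9 of the 20 members (45.0%) had a window with a match. Over all genes 11411 of 34788 windows (32.8%) did. A match is a description of letters and not of a bound site.

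Some libraries stood apart, and they are given before the results. The 16 libraries labelled DLD1 controls went against that label: each correlated best with the sorted HCT15 libraries and not with sorted DLD1, and of 36 genes that were above 5 CPM in sorted HCT15 and under 0.25 CPM in sorted DLD1, each control library had 35 or 36 at 1 CPM or more. Of 29 genes of the opposite kind, each control library had at most 1. DLD1 and HCT15 are known to derive from the same tumor. In the HOX genes the same was seen as values: of the 30 members tested in the controls, 21 to 24 were nearer to the sorted HCT15 mean than to the sorted DLD1 mean in the 4 control groups. They are called the libraries labelled DLD1 controls, and the cause was not tested. In HCT15 samples 1 and 2 stood apart from samples 3 and 4 in both populations, and in HT55 sample 2 stood apart from the others in HOXD9 and HOXB9. RKO had summed epithelial marker levels (10 genes) of 242.2 to 352.9 CPM over its 8 sorted samples, where SW48, the next lowest line, had 2702 to 3854 CPM. Depth was 12237225 to 20913455 counts on genes per library, 3187 to 43016 of them on HOX genes, and 3 counts corresponded to 0.143 to 0.245 CPM. The endothelial markers summed to at most 3.59 CPM in any library. The immune markers were high in SW948 (1048 to 1651 CPM, chiefly LYZ, lysozyme, at 1371 ± 33.02 CPM (SD, n = 4) in its non-LRCs), whereas PTPRC, the pan-leukocyte gene, was at 0 there and at 15.6 ± 6.74 CPM in SW48.

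Across the 6 lines, each cluster had its own line of highest summed level, and the HOXB cluster gave the largest share of HOX RNA in every line. Levels between genes are given as RPKM, reads per kilobase of exon at a common library size after TMM scaling, and as mean ± SD of the 4 non-LRC samples. The summed HOXB level was 704 ± 183 RPKM in HCT15, 392 ± 23.7 in DLD1, 346 ± 24.6 in SW48, 284 ± 33.2 in HT55, 237 ± 7.46 in SW948 and 44.997 ± 2.18 in RKO. HOXB thus made up 90.4% of the summed HOX RPKM in HCT15 and 38.8% in RKO, the highest and the lowest share. The HOXA sum was 164 ± 6.62 RPKM in DLD1, 94.6 ± 3.501 in HT55, 62.98 ± 2.78 in SW48, 62.3 ± 16.8 in HCT15, 38.3 ± 0.892 in RKO and 29.5 ± 0.697 in SW948. DLD1 and SW948 lay at the ends, and SW48 and HCT15 overlapped. HOXC and HOXD were far lower. The HOXC sum was 22.4 ± 1.22 RPKM in RKO and 15.04 ± 1.42 in SW48, against 4.31 ± 0.576 in HCT15, 2.41 ± 0.518 in DLD1, 1.46 ± 0.877 in HT55 and 0.276 ± 0.0751 in SW948. The HOXD sum was highest in HT55, at 29.4 ± 12.8 RPKM, with 10.4 ± 0.975 in RKO, 8.67 ± 1.77 in SW48, 8.12 ± 0.429 in HCT15, 3.23 ± 0.3305 in DLD1 and 0.617 ± 0.167 in SW948. In HT55 the mean of HOXD9 alone was 27.4 RPKM of that sum. HT55 was highest by mean for 1 tested HOXD member, HCT15 for 3, SW48 for 2 and RKO for 1. The HOXD sum of HT55 sample 2 was 10.4 RPKM, below RKO samples 1 and 2 at 10.9 and 11.5. In bulk samples, fewer cells that express a gene and less RNA per cell cannot be told apart.

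In the non-LRCs, 34 of 38 members passed the filter of at least 10 counts in at least 4 samples, and all 34 differed between the lines (edgeR quasi-likelihood F test, largest adjusted p = 2.09e-06), as did 98.3% of all genes tested. Over the 15 pairs of lines, 418 of 510 tests of a member were called, where 71.1% of the tests over all genes were. Both counts take in members that could pass the filter through 1 line alone, for which a difference between lines was bound to appear. HOXC13 had 32 to 45 counts in SW48 and at most 3 in any other non-LRC library. HOXD11 came near to this, with 14 to 21 in HCT15 and 10 or more in only 1 other library (HT55, 13). When all non-LRC libraries had to reach 10 counts, 15 members were left and each differed. The 4 members that did not pass the first filter were HOXB1, HOXC12, HOXD1 and HOXD12. HOXB1 had no count in any non-LRC sample, and the other 3 had at most 0.193 RPKM as a line mean. With at least 10 counts in each of the 4 non-LRC samples as the mark of a detected gene, 28 of 38 members were detected in RKO, 26 in SW48, 25 in HCT15, 23 in DLD1, 21 in HT55 and 16 in SW948. SW948 had no HOXC or HOXD gene at that level, and HT55 had no HOXC gene. Of the tested members, 11 were highest by mean in DLD1, 9 in RKO, 8 in HCT15, 4 in SW48, 2 in HT55 and none in SW948. These are ranks of means, and the first line was not always called above the second. DLD1 was not called above HCT15 for HOXB3 and HOXB13, nor RKO above SW48 for HOXD3. SW948 against DLD1 gave 26 members lower and 0 higher of 34, and SW948 against HCT15 gave 28 lower and 2 higher.

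**Figure D1:**
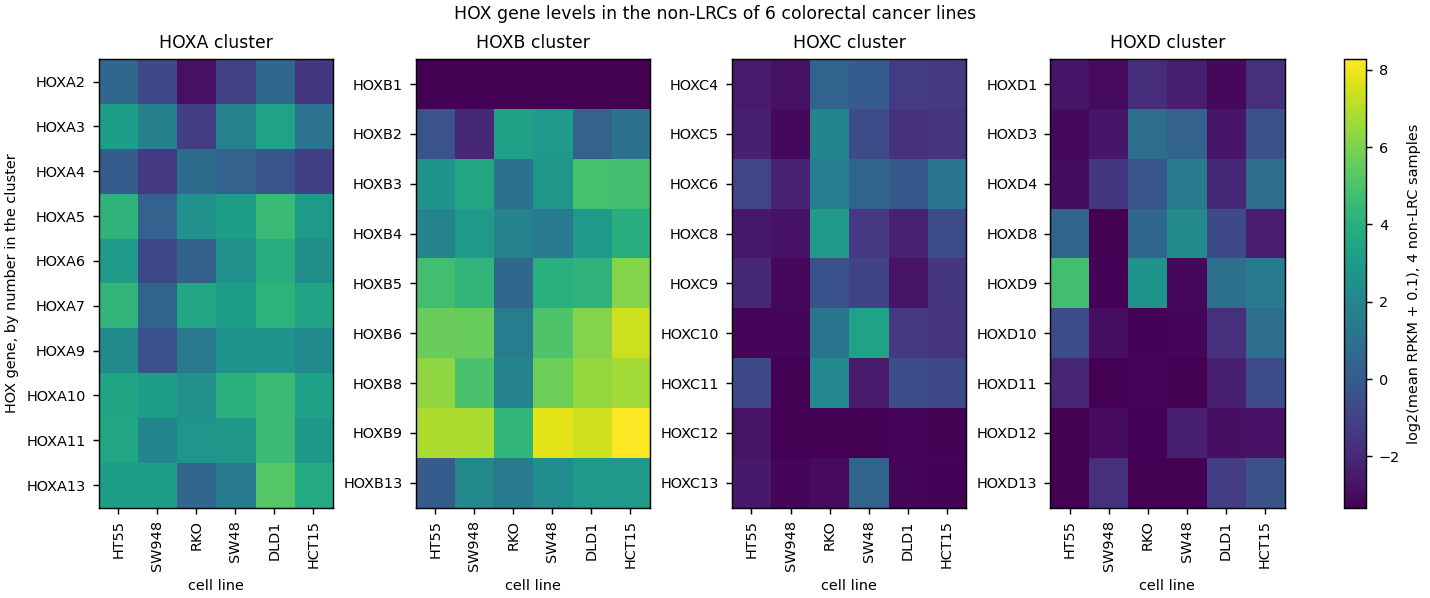
Heat maps of log2(mean RPKM + 0.1) over the 4 non-LRC samples, with the HOX genes reported here as rows by number and the 6 cell lines as columns. HOXB9 was the highest gene in each line, and SW948 was lowest in 7 of the 8 tested HOXC genes, with a summed HOXC level of 0.276 RPKM.

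In the HOXA cluster, 9 of the 11 members were highest by mean in DLD1, HOXA7 in HT55 and HOXA4 in RKO, and the 3 most abundant were HOXA10, HOXA13 and HOXA7. DLD1 was not called above HT55 for HOXA2 and HOXA3, nor above SW48 for HOXA9. HOXA13, the most posterior gene and a marker of the hindgut end, had RPKM of 37.8, 35.6, 39.7 and 34.1 in the 4 DLD1 non-LRC samples, 7.13, 6.09, 17.98 and 22.1 in HCT15 and 9.62, 9.63, 8.23 and 8.23 in HT55. It had 8.63, 8.81, 9.08 and 8.15 in SW948, 2.53, 2.46, 3.09 and 2.497 in SW48 and 1.28, 1.498, 1.21 and 1.34 in RKO. All DLD1 samples were above all others, HT55 and SW948 overlapped and did not differ beyond their spread, and RKO was below every other line, with a log2 difference to DLD1 of -4.79 ± 0.29 (SE), adjusted p = 6.29e-14. HOXA10, a posterior gene of the AbdB group, had 25.2, 22.9, 24.2 and 24.9 RPKM in DLD1, 15.01, 18.6, 16.9 and 15.99 in SW48 and 10.7, 10.1, 12.5 and 11.3 in HT55. In HCT15 it had 7.94, 7.81, 11.9 and 11.9, in SW948 8.26, 8.33, 8.88 and 9.10 and in RKO 5.07, 6.09, 5.49 and 5.91. Its line means ran from 5.64 to 24.3 RPKM, and HT55, HCT15 and SW948 did not differ as neighbours. HOXA7, a gene of the central part of the cluster, had 19.97, 15.9, 22.8 and 19.8 RPKM in HT55, 16.7, 16.99, 18.996 and 18.5 in DLD1 and 12.7, 10.9, 12.1 and 11.4 in RKO. In HCT15 it had 8.76, 10.3, 13.3 and 11.5, in SW48 7.401, 9.803, 8.19 and 9.603 and in SW948 1.55, 1.22, 0.8803 and 1.35. HT55 and DLD1 were not called as different, nor were RKO and HCT15, and SW948 lay below all. Of the HOXA7 exon length, 62.5% overlapped HOXA-AS3 on the other strand, and without a stated strand setting the reads of the pair cannot be told apart.
Within HOXA, SW948 was low in the central genes: HOXA5 was at 1.16 ± 0.263 RPKM there against 23.6 ± 1.43 in DLD1, and HOXA6 at 0.467 ± 0.112 against 15.4 ± 1.29. SW948 was also the lowest line by mean for HOXA4, HOXA9 and HOXA11. RKO was lowest by mean for the anterior HOXA2 and HOXA3 and for the posterior HOXA10 and HOXA13. HOXA6 was low in RKO too, at 0.675 to 1.47 RPKM. HOXA3 was at 0.332 ± 0.0127 RPKM in RKO and 10.1 ± 1.02 in DLD1, and HOXA2 at 0.0436 ± 0.0246 against 1.399 ± 0.443, while HOXA4 was at 1.6003 ± 0.614 in RKO and the difference to SW48 was not called (adjusted p = 0.147).

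In the HOXB cluster, 5 of the 8 tested members were highest in HCT15, and 5 of 8 were lowest in RKO (HOXB3, HOXB5, HOXB6, HOXB8 and HOXB9). HOXB9, whose protein is a posterior homeodomain factor, was the most abundant HOX gene in every line by mean RPKM. It had 280.0, 240.1, 356 and 361 in HCT15, 226, 182, 234 and 243 in SW48 and 180.3, 219, 146 and 149 in DLD1. Its values were 124, 85.8, 124 and 124 in HT55, 114, 115, 109.5 and 117 in SW948 and 18.5, 19.4, 17.8 and 20.9 in RKO. RKO was below all other lines without overlap, HT55 and SW948 were not called as different, and HCT15 exceeded SW48 by a log2 difference of 0.50 (adjusted p = 0.00224). HOXB6 had 128, 106, 214 and 214 RPKM in HCT15, 60.4, 69.6, 73.5 and 72.7 in DLD1 and 54.4, 45.8, 48.3 and 49.9 in HT55. In SW948 it had 50.3, 47.2, 44.4 and 50.1, in SW48 31.1, 31.9, 33.2 and 38.9 and in RKO 2.88, 2.64, 3.18 and 3.14. HCT15 lay above the other lines and RKO below them, and HT55 and SW948 were not called as different. RKO stood apart from HCT15, with a log2 difference of -5.82 ± 0.19 (SE), adjusted p = 2.09e-19. Of the HOXB6 exon length, 32.9% overlapped HOXB-AS3 or HOXB3. HOXB8 had 79.6, 68.7, 129 and 134 RPKM in HCT15, 79.2, 76.9, 94.3 and 91.1 in DLD1 and 85.96, 63.8, 92.7 and 84.997 in HT55. It had 44.7, 63.01, 48.001 and 53.4 in SW48, 32.4, 33.2, 28.9 and 29.3 in SW948 and 3.78, 2.997, 3.74 and 3.56 in RKO. HCT15 and DLD1 were not called as different, nor were DLD1 and HT55, and RKO was again the lowest.
HOXB2, an anterior gene of the cluster, had another order. Its RPKM was 9.903, 9.38, 9.86 and 10.3 in RKO, 7.15, 8.06, 7.86 and 7.12 in SW48 and 2.66, 1.47, 1.91 and 1.75 in HCT15. It was 1.26, 0.857, 1.09 and 1.42 in DLD1, 0.672, 0.4596, 0.619 and 0.9304 in HT55 and 0.103, 0.215, 0.183 and 0.104 in SW948. The CCS2 lines held the highest values, each pair of neighbours in the order was called as different, and RKO exceeded SW948 by a log2 difference of 6.01 (adjusted p = 6.05e-18). HOXB13, at the far posterior end and set apart from the rest of the cluster, was at 7.65 ± 0.635 RPKM in DLD1 and 0.926 ± 0.478 in HT55, the highest and the lowest line.

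HOXC had 6 of its 8 tested members highest by mean in RKO and 2, HOXC10 and HOXC13, in SW48. RKO was not called above SW48 for HOXC4 and HOXC9. In SW48 the mean of HOXC10 alone was 10.4 of the 15.04 RPKM in the HOXC sum. HOXC10 had 10.6, 8.91, 9.83 and 12.2 RPKM in SW48, 2.08, 2.19, 2.36 and 2.16 in RKO and 0.2502, 0.194, 0.276 and 0.394 in DLD1. The values were 0.2195, 0.362, 0.3503 and 0.0576 in HCT15, 0, 0.0317, 0.0321 and 0 in HT55 and 0.0267, 0, 0.0271 and 0 in SW948. SW48 exceeded RKO, and HT55 and SW948 had at most 1 count in each library. HOXC8, a central gene that marks the trunk, had 7.52, 8.11, 6.75 and 7.36 RPKM in RKO, 1.101, 0.888, 0.196 and 0.0847 in HCT15 and 0.292, 0.196, 0.484 and 0.161 in SW48. In the remaining lines it had 0.0818, 0.163, 0.135 and 0.0643 in DLD1, 0, 0.156, 0.0629 and 0.060996 in HT55 and 0.0525, 0.0623, 0.0798 and 0 in SW948. RKO stood alone, with a log2 difference of 3.67 to the second line (adjusted p = 3.14e-09), and no other pair of neighbours differed beyond its spread. Among the HCT15 samples, 1 and 2 were higher than 3 and 4. HOXC6 had 2.91, 2.65, 3.06 and 3.38 RPKM in RKO, 2.12, 2.11, 2.71 and 1.93 in HCT15 and 1.43, 1.39, 0.747 and 1.37 in SW48. It had 0.667, 0.5704, 1.06 and 0.989 in DLD1, 0.436, 0.914, 0.154 and 0.256 in HT55 and 0.0917, 0.0871, 0.167 and 0.129 in SW948. RKO and HCT15 were not called as different, and part of the HOXC6 exons (16.1%) is common to HOXC4 or HOXC9. HOXC13, the most posterior HOXC gene, was at 1.19 ± 0.107 RPKM in SW48 and at most 0.0707 in the other lines. HOXC11 was at 4.13 ± 0.276 RPKM in RKO and listed at 0 in all 4 SW948 non-LRC samples. HOXC4 and HOXC5, printed above with one start, were both highest in RKO, at 1.23 ± 0.196 and 3.696 ± 1.13 RPKM, and both lowest in SW948.

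HOXD genes were on in different lines by position. HOXD9 had 32.5, 9.45, 31.6 and 36.1 RPKM in HT55, 6.52, 6.84, 5.94 and 5.904 in RKO and 3.15, 3.15, 2.31 and 1.57 in HCT15. It had 1.66, 2.14, 1.89 and 1.66 in DLD1, 0.0377, 0.0361, 0 and 0 in SW48 and 0, 0, 0 and 0.03402 in SW948. HT55 was the highest line, its sample 2 lay far below its other 3, and SW48 and SW948 were at or near 0. HOXD8 had 5.205, 4.11, 4.68 and 4.197 RPKM in SW48, 1.33, 1.56, 1.44 and 1.31 in RKO and 1.34, 0.802, 1.19 and 1.43 in HT55. The values were 0.451, 0.325, 0.547 and 0.651 in DLD1, 0.198, 0.117, 0 and 0.02596 in HCT15 and 0, 0, 0 and 0 in SW948. SW48 was the highest line, whereas HOXD9 next to HOXD8 was at or near 0 there. HOXD4 had 4.04, 2.02, 2.44 and 2.39 RPKM in SW48, 0.764, 0.917, 2.402 and 2.76 in HCT15 and 0.667, 1.03, 0.625 and 0.714 in RKO. It had 0.335, 0.133, 0.283 and 0.2801 in SW948, 0.05802, 0.116, 0.2301 and 0.205 in DLD1 and 0.0632, 0, 0 and 0.0649 in HT55. SW48 and HCT15 were not called as different, and the last 3 lines were low. The posterior HOXD10, HOXD11 and HOXD13 were highest in HCT15, at 1.74 ± 0.296, 0.549 ± 0.0678 and 0.626 ± 0.188 RPKM, and SW48 had 0.0124, 0 and 0.

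**Figure D2:**
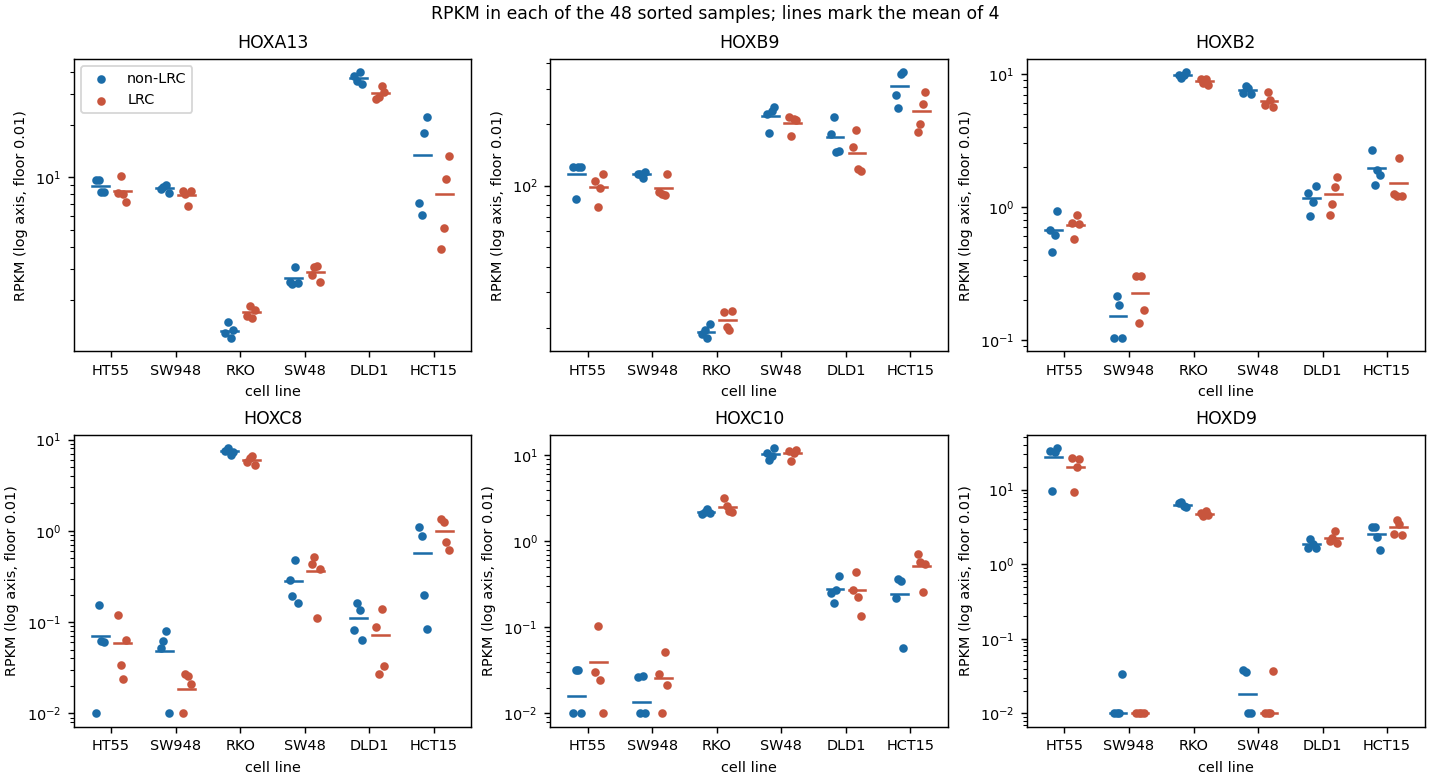
RPKM on a log axis with a floor of 0.01 for 6 HOX genes in each sorted sample, by line, with non-LRCs in blue and LRCs in red and a bar at the mean of 4. HOXA13 and HOXB9 were lowest in RKO, HOXB2 and HOXC8 were highest there, HOXC10 peaked in SW48 and HOXD9 in HT55.

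Genes side by side in a cluster tended to have similar line patterns. Over the 6 line means, the median Pearson r was 0.74 for 30 pairs of adjacent tested members and 0.47 for 102 pairs further apart in the same cluster, a description over points that share libraries and normalization. In HOXD the medians were 0.57 for 6 adjacent pairs and -0.13 for 15 others. For adjacent and other pairs they were 0.66 and 0.47 in HOXA, 0.79 and 0.47 in HOXB and 0.81 and 0.73 in HOXC. Single adjacent pairs ran down to -0.50, for HOXB2 and HOXB3. HOXD10 and HOXD11, with an r of 0.98, also share exon length (18.2% and 21.4%). Among the noncoding RNAs of the clusters, 12 of 12 tested differed between the lines. HOTTIP, transcribed beside HOXA13, was at 114 ± 6.89 CPM in DLD1, 41.6 ± 24.4 in HCT15, 9.96 ± 2.22 in HT55, 5.39 ± 0.653 in SW948, 0.269 ± 0.236 in RKO and 0.126 ± 0.0801 in SW48. The order of the 4 highest lines was that of HOXA13. HAGLR, in the HOXD cluster, was highest in RKO (14.6 ± 0.844 CPM), and HOTAIR, in HOXC, was at most 0.566 CPM in any line. Each of the 3 tested ParaHox genes differed between lines. CDX2, the intestinal master regulator, was at 20.9 ± 1.48 CPM in RKO and 37.4 ± 8.97 in SW48, against 246 ± 26.6 in DLD1, 303 ± 25.1 in SW948, 312 ± 29.2 in HT55 and 391 ± 117 in HCT15. RKO and SW48 also had the lowest HOXA13 levels, whereas SW48 ranked after only HCT15 for HOXB9 and after only DLD1 for HOXA10. SW948 was the lowest line in 6 HOXA members. The part of CDX2 in the HOX levels was not tested. CDX1 was at 84.8 ± 8.08 CPM in SW948 and 62.2 ± 9.997 in HT55 and at most 0.0718 elsewhere. All 7 tested TALE cofactors differed: PBX3 was at 115 ± 6.58 CPM and MEIS3 at 55.7 ± 3.9998 CPM in RKO. Of the Polycomb genes 22 of 22 tested, of the MLL and H3K27 demethylase genes 10 of 10 and of the retinoic acid genes 8 of 8 differed between the lines. These counts, and those of the noncoding RNAs, ParaHox genes and TALE cofactors, stand beside 98.3% of all genes tested that differed. The limit of the filter given above for HOXC13 holds for all of these counts.

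Label retention was compared within lines. LRCs were sorted by high CFSE, so dormancy and the amount of dye held cannot be told apart in this comparison. Over the 48 sorted samples with line as a term, 9 of 35 tested members were called, 8 lower and 1 higher in LRCs, a share near the 22.9% of all genes that were called. Values in parentheses are log2 fold changes, LRC minus non-LRC. The called members were 5 of 11 HOXA and 4 of 8 HOXB genes, and none of 8 HOXC and 8 HOXD genes passed. The median log2 fold change was -0.20 for HOXB and -0.08 for HOXA, 0.01 for HOXC and 0.10 for HOXD, and 0.01 over all genes tested. HOXB3 was lower (-0.26 ± 0.07 (SE), adjusted p = 0.00516), with a lower LRC mean in 6 of 6 lines. HOXA9, a posterior gene known for its part in leukemia, was lower (-0.30 ± 0.09 (SE), adjusted p = 0.0103), with a lower LRC mean in 5 of 6 lines. HOXA10 (-0.19, adjusted p = 0.0121), HOXA11 (-0.15, 0.0139) and HOXA7 (-0.18, 0.0339) were lower too. Their LRC means were lower in 4, 5 and 4 of 6 lines. HOXB4 fell by 0.25 on the log2 scale (adjusted p = 0.0221), HOXB9 by 0.18 (0.0342) and HOXB13 by 0.17 (0.0421). HOXC9 had a higher LRC mean in 6 of 6 lines but was not called (0.43 ± 0.20 (SE), adjusted p = 0.113). With the sample number as a block, 12 members were called, 11 lower and 1 higher, beside 25.5% of all genes, and HOXB5 (-0.24, adjusted p = 0.00596), HOXB6 (-0.21, 0.00732) and HOXB8 (-0.22, 0.00408) joined the lower ones, so that 7 of 8 HOXB genes were called. Without RKO, 3 members were called, and without HCT15, 4. Leaving out the samples numbered 1, 3 or 4 in every group also left 3.

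The log2 fold change of HOXB3 ran from -0.57 in HCT15 through -0.38 in SW948, -0.33 in RKO and -0.20 in SW48 to -0.05 in HT55 and -0.03 in DLD1, and of these the RKO value alone was called without the block. In HCT15, the line with the lowest estimate, HOXB3 was at 23.4, 22.7, 33.7 and 34.4 RPKM in non-LRCs and 14.7, 12.2, 22.4 and 26.9 in LRCs. HOXB4 was at 13.2, 13.2, 17.6 and 19.9 and 10.4, 7.38, 12.5 and 16.8. Here the samples numbered alike moved together, and the LRC value was the lower in each same-numbered pair.

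RKO had the most members called in the unblocked fits, 11 of 29 tested, 9 lower and 2 higher, a share below the 41.5% of all genes that were called. The members lower in RKO LRCs were in all clusters, and the posterior HOXA genes led. HOXA9 had 2.57, 2.55, 2.39 and 2.39 RPKM in non-LRCs and 1.23, 0.751, 1.55 and 1.44 in LRCs (-1.03 ± 0.18 (SE), adjusted p = 0.000403). HOXA10 had 5.07, 6.09, 5.49 and 5.91 and 3.54, 3.78, 4.25 and 3.37 (-0.62 ± 0.10 (SE), adjusted p = 0.000192). Both groups were apart without overlap. HOXA11 had 6.95, 6.06, 6.59 and 6.66 in non-LRCs and 4.95, 4.86, 4.45 and 3.79 in LRCs (-0.57 ± 0.11 (SE), adjusted p = 0.000684), and HOXA7 had 12.7, 10.9, 12.1 and 11.4 and 7.14, 8.11, 9.55 and 8.28 (-0.53 ± 0.10 (SE), adjusted p = 0.000514). These 4 genes lie between HOXA6 and HOXA13, and HOXA13 at the far end was higher, at 1.61, 1.85, 1.58 and 1.74 in LRCs (0.32 ± 0.12 (SE), adjusted p = 0.0456) against the non-LRC values given above. HOXA3 was also higher (0.69 ± 0.26 (SE), adjusted p = 0.0409). Both higher calls depended on the setting: that of HOXA13 was lost without any 1 sample number and with DESeq2, and that of HOXA3 without number 1 or 2, and with the sample number as a block neither was called. HOXA9, HOXA10 and HOXA11 share between 26.3% and 27.2% of their exon length with other genes on either strand (HOXA10-AS, HOXA11-AS and a gene listed without a symbol among them), so that some of these reads cannot be assigned to one gene. HOXD9 had 4.79, 4.43, 5.12 and 4.63 RPKM in LRCs (-0.44 ± 0.11 (SE), adjusted p = 0.00446) and HOXD8 had 1.12, 0.822, 0.941 and 0.844 (-0.63 ± 0.18 (SE), adjusted p = 0.011), both below every non-LRC sample. HOXC8 had 5.68, 6.31, 6.59 and 5.305 (-0.35 ± 0.10 (SE), adjusted p = 0.0123), also below. HOXB3 had 2.03, 1.89, 2.04 and 2.03 RPKM in non-LRCs and 1.69, 1.67, 1.61 and 1.52 in LRCs (-0.33 ± 0.10 (SE), adjusted p = 0.0133). HOXB4 had 2.76, 3.92, 3.82 and 3.49 and 2.52, 2.07, 2.76 and 2.89 (-0.48 ± 0.16 (SE), adjusted p = 0.022), and these groups overlapped. HOXB9 was at 23.8, 20.1, 19.4 and 24.2 in LRCs, a log2 difference of 0.17 that was not called (adjusted p = 0.13). In the same samples 6 of 8 proliferation markers were lower, their sum was 529.8 to 1025 CPM in LRCs and 1128 to 1249 CPM in non-LRCs, and the fibroblast markers (10 genes, of which ACTA2, smooth muscle actin, was 4.897 CPM in non-LRCs and 28.6 in LRCs) summed to 24.5 to 36.96 CPM in LRCs and 4.09 to 6.43 CPM in non-LRCs. Their part in the HOX changes was not tested. Leaving out 1 sample number left 7 to 9 members called, 7 without number 2.

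In DLD1, 3 of 26 tested members were called, beside 14.6% of all genes. HOXA6 had 15.1, 14.2, 17.2 and 15.2 RPKM in non-LRCs and 20.5, 20.1, 22.7 and 20.6 in LRCs (0.45 ± 0.08 (SE), adjusted p = 0.00506), without overlap. HOXD10 had 0.185, 0.317, 0.184 and 0.125 and 0.516, 0.478, 0.599 and 0.862 (1.56 ± 0.32 (SE), adjusted p = 0.0102), also without overlap but at low levels. Of the HOXA6 exon length, 39.3% overlapped HOXA-AS3 on the other strand, and 18.2% of that of HOXD10 overlapped HOXD11. Some of these reads cannot be assigned to one gene. HOXA13 was the one member that fell: LRCs had 28.1, 28.6, 33.02 and 30.8 RPKM (-0.28 ± 0.07 (SE), adjusted p = 0.0192), below all the non-LRC values given above. With the sample number as a block, in a line where same-numbered samples deviated together, 9 members were called, 6 higher and 3 lower, beside 33.8% of all genes. The added members included HOXA5 (0.24 ± 0.06 (SE), adjusted p = 0.00223), HOXA7 (0.20 ± 0.05 (SE), adjusted p = 0.0054) and HOXB9 (-0.25 ± 0.04 (SE), adjusted p = 2.71e-05). HOXA7 was thus higher in DLD1 LRCs, although it was lower in LRCs across lines. HOXB9 had 155, 188, 120.4 and 118 RPKM in the DLD1 LRCs, lower than the non-LRC sample of the same number in 4 of 4 pairs although the groups overlapped. As in RKO, 6 of 8 proliferation markers were lower in DLD1 LRCs. Without the samples numbered 1, 1 member was called, and 2 without any other number.

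HCT15, SW48, HT55 and SW948 had no member called in the unblocked fit, where 0.977%, 0.796%, 0% and 0% of all genes were called. At an unadjusted p under 0.05, 5 members passed in HCT15, 5 in SW48, 1 in HT55 and 6 in SW948, and DESeq2 called 0 members in each of the 4 lines. In HCT15 the block changed the count: 13 of 30 members were called, 12 lower and 1 higher, beside 21.3% of all genes. All 7 tested HOXB genes from HOXB3 on were lower. HOXB6 had 66.7, 60.1, 137 and 163 RPKM in LRCs (-0.69 ± 0.08 (SE), adjusted p = 2.57e-05), HOXB5 fell by 0.67 (59.5, 44.6, 92.8 and 92.3 in non-LRCs and 27.7, 28.8, 60.4 and 70.97 in LRCs) and HOXB8 by 0.59. HOXB9 had 183, 200.2, 253 and 290.2 in LRCs (-0.41 ± 0.08 (SE), adjusted p = 0.00126). The LRC sample was below the non-LRC sample of its number in each of these, and samples 1 and 2 were below samples 3 and 4 in each population. HOXA13 had 3.92, 5.12, 9.795 and 13.3 in LRCs (-0.69 ± 0.09 (SE), adjusted p = 3.67e-05) with the same split between the numbers. HOXC8 was the member higher in HCT15 LRCs, at 1.36, 1.26, 0.754 and 0.617 (0.90 ± 0.29 (SE), adjusted p = 0.0367). In SW48 the block called 3 members, all lower and beside 9.69% of all genes: HOXB8 (-0.29 ± 0.06 (SE), adjusted p = 0.0126), HOXA7 (-0.39) and HOXB6 (-0.26). HT55 had none with the block. The 8 proliferation markers in HCT15 summed by sample number to 1307, 1575, 909 and 891.8 CPM in non-LRCs and 1857, 1754, 1070 and 977.1 CPM in LRCs, the LRC sum being the higher in each same-numbered pair. Their part in the HOX changes was not tested.

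**Figure D3:**
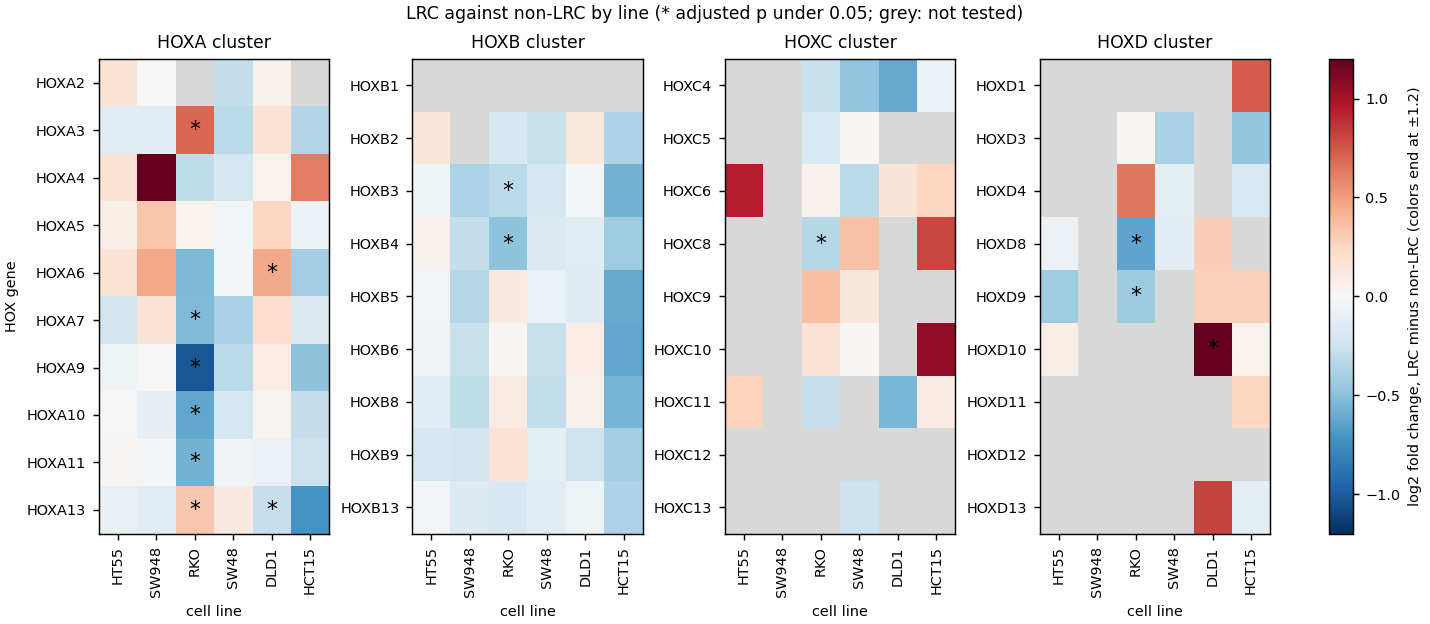
Log2 fold change of LRC minus non-LRC from the unblocked fit of each line, with the HOX genes reported here as rows and lines as columns, an asterisk where the adjusted p was under 0.05 and grey where a gene did not pass the filter. RKO carried 11 of the 14 asterisks and the HOXB panel was mostly blue, most deeply in HCT15.

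The LRC effect differed between lines for 5 of 35 members, all in HOXA, beside 14.3% of all genes (edgeR interaction F test). They were HOXA11 (adjusted p = 0.017), HOXA3 (0.019), HOXA9 (0.0197), HOXA7 (0.027) and HOXA6 (0.0468). HOXA9 fell in RKO by 1.03 on the log2 scale, and its estimates were -0.49 in HCT15, -0.33 in SW48, -0.06 in HT55, 0.00 in SW948 and 0.09 in DLD1, none of them called. With the sample number as a block it was also called lower in HCT15 (-0.50 ± 0.12 (SE), adjusted p = 0.00688). HOXA6 was -0.54 in RKO (adjusted p = 0.18), and 0.45 in DLD1. With the block 15 members were called, beside 33.6% of all genes, HOXB6 (adjusted p = 8.65e-06) and HOXB8 (adjusted p = 0.000322) among them: both were lower in HCT15 LRCs in 4 of 4 same-numbered pairs and in DLD1 LRCs in 0 of 4. Without the samples numbered 1, 3 or 4, no member was called in the unblocked fit. Among the partners of HOX genes across lines, 2 of 7 TALE cofactors were called, MEIS2 higher (0.26 ± 0.07 (SE), adjusted p = 0.00468) and PBX2 lower (-0.08 ± 0.03 (SE), adjusted p = 0.0189). Of 13 tested noncoding RNAs, HOTAIRM1, transcribed in the HOXA cluster, was higher (0.42 ± 0.12 (SE), adjusted p = 0.00649), as was HOTAIR at its low level (0.56 ± 0.21 (SE), adjusted p = 0.041), and HOTTIP was lower (-0.40 ± 0.15 (SE), adjusted p = 0.0486). None of 3 ParaHox genes was called, and of 22 Polycomb genes 3 were higher and 5 lower, and of 10 MLL and demethylase genes 4 were higher and 4 lower. In the same comparison across lines, 22.9% of all genes were called. In RKO, PBX3 was lower in LRCs (-0.51 ± 0.07 (SE), adjusted p = 5.54e-05).

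Control cultures addressed time and the dye itself. The dye was compared there with DMSO in unsorted cells, and its part in the LRC differences was not tested. The tests of time and dye used the same 16 libraries labelled DLD1 controls, whose nearest sorted line was HCT15. From day 1 to day 5, 12 of 30 tested members changed, 5 higher and 7 lower, a share below the 49.5% of all genes that were called (edgeR). Without TMM scaling, 15 members were called, 4 higher and 11 lower, beside 48.2% of all genes, and of the genes called 2467 of 6991 were higher, against 3837 of 7185 with TMM. Values in parentheses are log2 fold changes, day 5 minus day 1. HOXB9 had 177, 177, 149.5 and 226 RPKM in the DMSO samples of day 1 and 335, 259.6, 236 and 250.4 in those of day 5. With CFSE it had 45.9, 51.6, 84.05 and 81.7 on day 1 and 144, 139, 182 and 187 on day 5. The day 5 values were above the day 1 values in both treatments without overlap (0.92 ± 0.14 (SE), adjusted p = 9.04e-05). HOXB13 had 4.63, 4.69, 3.29 and 7.52 and then 7.08, 7.98, 7.44 and 7.804 RPKM with DMSO, and 2.93, 3.73, 3.14 and 3.38 and then 5.94, 5.24, 5.501 and 6.08 with CFSE (0.67 ± 0.13 (SE), adjusted p = 0.000637). HOXA13 rose by 0.90 (adjusted p = 0.00204), HOXB8 by 0.71 (adjusted p = 0.00506) and HOXB6 by 0.56 (adjusted p = 0.0297), the last not called without TMM. The 7 that fell were HOXB2, HOXA2, HOXC4, HOXC5, HOXD3, HOXD4 and HOXD9. HOXB2 had 1.32, 1.22, 0.976 and 0.667 and then 0.531, 0.239, 0.622 and 0.591 RPKM with DMSO, and 1.302, 1.36, 1.01 and 1.27 and then 0.322, 0.574, 0.574 and 0.539 with CFSE (-1.19 ± 0.21 (SE), adjusted p = 0.000298), lower without overlap in both treatments. HOXD3 had 0.591, 0.455, 0.316 and 0.529 and then 0.334, 0.194, 0.275 and 0.529 with DMSO, and 0.796, 0.626, 0.738 and 0.527 and then 0.117, 0.199, 0.212 and 0.195 with CFSE (-1.21 ± 0.22 (SE), adjusted p = 0.000404), apart only with CFSE. HOXC5 had 0.199, 0.387, 0.472 and 0.0657 and then 0.128, 0.0809, 0.0702 and 0.196 with DMSO, and 0.357, 0.439, 0.403 and 0.574 and then 0.0893, 0.03803, 0.195 and 0.112 with CFSE (-1.59 ± 0.38 (SE), adjusted p = 0.00276), and HOXC4, which has the same start, was also lower (-0.84, adjusted p = 0.0254). HOXD9 had 2.97, 3.23, 2.87 and 1.75 and then 1.87, 2.02, 1.87 and 2.09 with DMSO, and 3.76, 3.64, 3.19 and 3.64 and then 2.35, 2.59, 2.32 and 2.35 with CFSE (-0.53 ± 0.13 (SE), adjusted p = 0.00251). HOXD4 (-1.09) and HOXA2 (-1.52) fell too. Within HOXB, HOXB2 moved opposite to HOXB6, HOXB8, HOXB9 and HOXB13. Of 10 epithelial markers 7 were higher and 1 lower on day 5, and their part in the HOX changes was not tested. With at least 10 counts required in every sample, 7 of 19 testable members were called.

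The dye comparison gave 12 of 30 members called, 3 higher and 9 lower with CFSE, beside 28.5% of all genes. From a principal component analysis of its DLD1 controls, the study put nearly all differences down to time in culture and very little to the dye. That is a share over the whole transcriptome, a measure unlike a count of genes called. Values in parentheses are log2 fold changes, CFSE minus DMSO. HOXB had the most members called: 7 of its 8 tested members were lower, with a median log2 fold change of -1.03 against -0.02 over all genes. HOXB9 gave the smallest adjusted p (-1.09 ± 0.14 (SE), adjusted p = 0.00029), the CFSE samples being below the DMSO samples on both days in the values above. HOXB6 had 52.6, 52.8, 47.3 and 119 RPKM with DMSO and 26.7, 27.3, 36.5 and 35.6 with CFSE on day 1, and 125, 88.4, 111 and 129.7 and 28.3, 28.4, 58.02 and 54.8 on day 5 (-1.26 ± 0.21 (SE), adjusted p = 0.000917). HOXB8 had 48.5, 47.3, 41.7 and 90.1 and 19.8, 20.4, 28.1 and 28.2 on day 1, and 111, 69.1, 90.4 and 94.5 and 28.4, 27.7, 56.4 and 53.3 on day 5 (-1.18 ± 0.19 (SE), adjusted p = 0.000853). Both were apart without overlap on each day. HOXB5 had 24.1, 21.5, 17.8 and 43.2 and 8.47, 9.58, 12.2 and 14.2 on day 1, and 34.999, 25.1, 40.1 and 47.98 and 11.1, 10.3, 23.04 and 21.3 on day 5 (-1.21 ± 0.22 (SE), adjusted p = 0.00149), again apart. HOXB3 had 22.02, 21.2, 18.8 and 24.6 and 8.65, 7.996, 12.03 and 11.98 on day 1, and 16.5, 13.3, 19.8 and 26.4 and 6.99, 6.61, 15 and 13.3 on day 5 (-0.97 ± 0.18 (SE), adjusted p = 0.00187), apart on day 1 only. HOXB4 (-0.73) and HOXB13 (-0.50) were also lower, and HOXB2 was not called (0.14, adjusted p = 0.646). HOXA13 had the largest fall: 4.21, 4.82, 4.16 and 12.4 RPKM with DMSO and 2.08, 2.36, 2.25 and 2.44 with CFSE on day 1, and 15.8, 9.603, 12.2 and 9.83 and 3.56, 3.81, 4.72 and 5.68 on day 5 (-1.44 ± 0.21 (SE), adjusted p = 0.00054). Sample 4 of DMSO on day 1 was well above the other 3 in HOXA13, HOXB6 and HOXB8, and without the samples numbered 4 these dye changes were -1.29, -1.11 and -1.12. The 3 members higher with CFSE included HOXC8 and HOXD9 (0.35, adjusted p = 0.0461). HOXC8 had 0.552, 0.644, 0.677 and 0.131 RPKM with DMSO and 1.09, 0.931, 1.02 and 0.947 with CFSE on day 1, and 0.256, 0.324, 0.234 and 0.261 and 1.102, 1.14, 0.584 and 0.771 on day 5 (1.37 ± 0.25 (SE), adjusted p = 0.00183), the CFSE samples being higher on both days without overlap. CFSE samples 1 and 2 were below samples 3 and 4 in HOXB3, HOXB5, HOXB6, HOXB8 and HOXB9 on each day, and in HOXB4 on day 5 only.

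**Figure D4:**
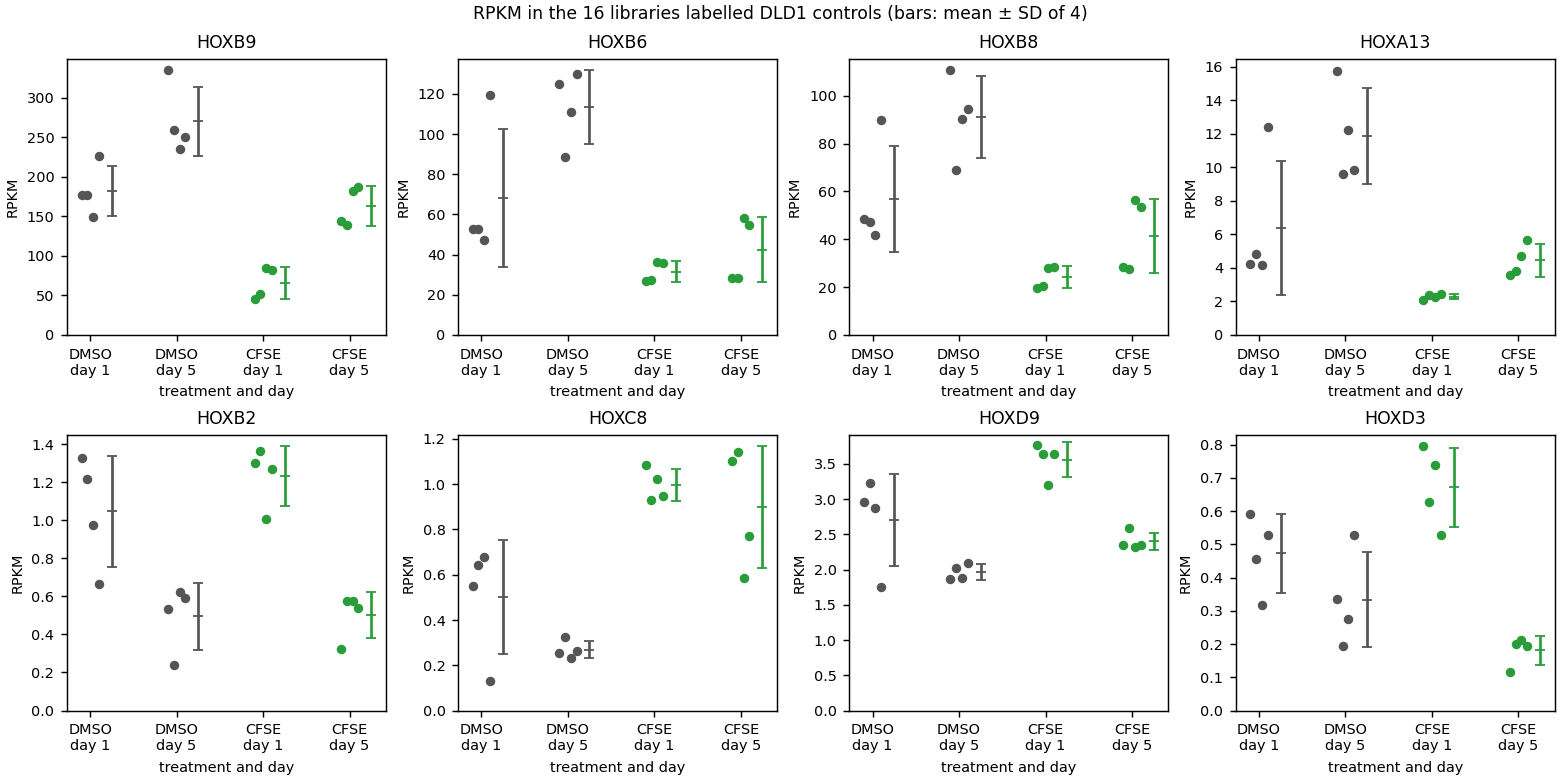
RPKM of 8 HOX genes in the 16 libraries labelled DLD1 controls, with 4 points and the mean ± SD for each treatment and day, DMSO in grey and CFSE in green, on axes that start at 0. HOXB9, HOXB6, HOXB8 and HOXA13 were lower with CFSE on both days, HOXC8 was higher, and HOXB2 fell with time in both treatments.

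For the difference of the dye effect between the days, 0 of 30 members were called (edgeR interaction test), beside 0.999% of all genes. At an unadjusted p under 0.05, 4 members passed (HOXA9, HOXA10, HOXB9 and HOXD3), and DESeq2 called 0. Without the samples numbered 4, 1 member was called, HOXA10. Of the factors around the clusters, CDX2 had 129 ± 107 CPM with DMSO and 50.98 ± 4.24 with CFSE on day 1, and 332 ± 23.9 and 153 ± 39.7 on day 5, with a wide spread in the DMSO samples of day 1. It was higher with time (1.45 ± 0.25 (SE), adjusted p = 0.000245) and lower with the dye (-1.22 ± 0.25 (SE), adjusted p = 0.00274), the directions of HOXB9 and HOXA13. HOTTIP followed the same directions (0.80 ± 0.22 (SE), adjusted p = 0.00617 for time and -1.67 ± 0.22 (SE), adjusted p = 0.000376 for the dye). HOTAIRM1 went the other way, lower with time (-1.23 ± 0.21 (SE), adjusted p = 0.000266) and higher with the dye (0.96 ± 0.21 (SE), adjusted p = 0.00439). In all, 5 of 9 tested noncoding RNAs, 2 of 7 TALE cofactors and 1 of 2 ParaHox genes were called for the dye, beside 28.5% of all genes. Of the Polycomb genes 2 were higher and 4 lower of 22, of the MLL and demethylase genes 3 were higher and 0 lower of 10, and of the retinoic acid genes 1 was higher and 2 lower of 8. Proliferation markers were higher with the dye in 4 of 8, and epithelial markers lower in 4 of 10. The part of these genes in the HOX values was not tested.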

How the data were processed

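Total RNA of 64 samples (RNeasy Micro, TruSeq, single-end HiSeq reads) had been aligned to hg19, and the authors deposited 1 file of unnormalized gene counts (Ensembl identifiers) per sample; the submitters' processing notes name TopHat, HTSeq and DESeq, and their roles, the annotation release and the strand setting are not given in the sources used here. Samples were grouped by the labels, 4 to a group, described by the study as biological replicates. Rows that name no gene were left out (no feature, 5.19% to 14.8% of counts). Counts were tested with edgeR 4.0.16 (R 4.3.3), TMM scaling and two-sided quasi-likelihood tests, after genes were required to reach 10 counts in 4 or more samples, with Benjamini-Hochberg adjustment over all genes and a threshold of 0.05. Each line was fitted alone for LRC against non-LRC. RPKM used GENCODE exon lengths. Code was tested on simulated data. Alternatives were DESeq2 1.42.0, other filters, no TMM, single samples or lines left out, 1 fit over all sorted samples, and the sample number as a block. In the LRC fits over several lines, the block was the sample number within each line. Deviations of same-numbered samples correlated above 0.1 in every pair in HT55, SW48, DLD1 and HCT15, not in SW948, RKO or the controls. Members given in full were the 3 most abundant per cluster by mean RPKM over 24 non-LRC samples, up to 14 called for LRCs and up to 12 called for time or dye, by smallest adjusted p; others are named by means, folds or counts where they show which part of a cluster was on or moved. The members and lists were chosen with earlier results of these data known. One HOXA gene and 1 cofactor gene are counted in the tests and totals but not reported here or drawn.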

Additional observations from a re-analysis of the deposited data

Results flagged for a closer look

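Sets of 4 samples of one group were checked for the summed level of each cluster and for the 3 most abundant members of each cluster. The other members were not checked. Among 207 sets, 17 held 1 sample far from its other 3 by Dixon's ratio, where chance flags about 1 in 20, or 10.3. All values are RPKM, with the range of the other 3 samples. In HT55 non-LRCs, sample 2 had 9.45 for HOXD9 (31.6 to 36.1), 85.8 for HOXB9 (123.5 to 123.9), 234.8 for the HOXB sum (298.4 to 305.1) and 2.78 for the HOXC sum (0.986 to 1.06). In the libraries labelled DLD1 controls, sample 4 of DMSO on day 1 had 12.4 for HOXA13 (4.16 to 4.82), 119.5 for HOXB6 (47.3 to 52.8) and 90.1 for HOXB8 (41.7 to 48.5). Sample 2 of DMSO on day 5 had 40.2 for the HOXA sum (50.01 to 51.4), and sample 2 of CFSE on day 5 had 2.59 for HOXD9 (2.32 to 2.35). In DLD1, sample 2 had 427.02 for the HOXB sum in non-LRCs (375 to 384) and 399 for that sum in LRCs (354 to 359), and sample 3 had 2.73 for the HOXC sum in LRCs (1.87 to 1.998). In SW48 non-LRCs, sample 3 had 3.09 for HOXA13 (2.46 to 2.53) and 0.747 for HOXC6 (1.37 to 1.43). In SW48 LRCs, sample 3 had 58.7 for the HOXA sum (56.05 to 56.4), and sample 2 had 7.5005 for HOXA7 (6.35 to 6.497). In SW948 LRCs, sample 4 had 115 for HOXB9 (90.1 to 93.1). The causes were not tested.

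The LRC effect differed between the 6 lines by the edgeR interaction test for HOXA11 (adjusted p = 0.01701), HOXA3 (adjusted p = 0.01899), HOXA9 (adjusted p = 0.01973), HOXA7 (adjusted p = 0.02703) and HOXA6 (adjusted p = 0.0468).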

How the results depend on the processing

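Of the counts of members called, 105 values under an alternative stayed within 1.5 times the main count and 26 did not. Counts were compared by size only. No single gene called in the main fit for LRCs, time or dye reversed its direction. For these single genes and for the numbers of members detected in a line, 397 values kept their side of the threshold or stayed within 1.5 times. A further 93 values of single genes kept their direction only. With at least 10 counts in every sample, fewer members could be tested, and 15 of 15 differed between lines, 195 of 225 tests between pairs of lines were called, and 7 of 19 members changed with time. Without TMM the median pairwise log2 difference over all genes moved from -0.003 to -0.1502, and that for time from 0.0374 to -0.0834. Leaving out RKO left 3 members called across lines, and leaving out HCT15 left 4. In 1 fit over the 48 sorted samples, the counts were 5 in RKO, 0 in DLD1, 1 in SW948 and 3 in HCT15. With no filter, SW948 had 4.

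With the sample number as a block, 9 members were called in DLD1, 13 in HCT15, 3 in SW48, 2 in SW948 (HOXB3 and HOXA4, where the numbers did not pair the samples) and 15 for the LRC effect between lines. The block moved no other count of members by over 1.5 times.

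Leaving out 1 sample number at a time gave 32 to 33 members for line differences, 385 to 409 for pairs of lines, 3 to 8 across lines, 0 to 2 in HT55, 0 to 3 in SW948, 7 to 9 in RKO, 0 to 0 in SW48, 1 to 2 in DLD1, 0 to 0 in HCT15, 0 to 5 for the LRC effect between lines, 9 to 17 for time, 8 to 11 for the dye and 0 to 1 for the dye by day. The 2 in HT55 came without sample 2, the 3 in SW948 and the 17 for time without sample 4. Members near 3 counts per library could not show small differences at this depth. The labels do not say that samples came from separate cultures, and p-values measure only the spread between them.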
